A study of Mus musculus with 9 samples.

Results

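The genes described here are Trp63, Trp73 and Trp53, which encode the mouse p53 family of transcription factors, and Tprg, a gene next to Trp63 whose full name is transformation related protein 63 regulated. They were chosen by name, as the non-control array probes whose gene name is 1 of these symbols or a synonym, and make up 4 of 28105 gene names and 9 of 41174 probes on the array. Each probe was kept apart, with the base of the transcript at which it lies.

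The RNA came from the esophagus of P0 (newborn) mice of 3 genotypes, all of background strain C57BL/6J. The groups were p63-/-;Cdx2 mice, which lack p63 and carry a Cdx2 transgene that the series' design names for the villin promoter (n = 2, of 3 that the labels count), p63-/- mice without the transgene (n = 3) and WT mice (n = 4). The p63-/-;Cdx2 mice are called p63-/- with Cdx2 in what follows. On every array the mouse RNA carried Cy5, and a reference RNA pooled from 11 mouse cell lines carried Cy3, with no dye swap. The labels name epithelium as the cell type and esophageal tissue as the RNA source, and 1 label of WT replicate 4 names p63-/- where its title, description and genotype say WT. Which part of Trp63 the knockout allele lacks is not given in the sources used here, so the Trp63 probes do not check the genotype labels.

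The members of the p53 family bind DNA through closely related domains and assemble into tetramers. p53 is best known for arresting or killing cells after DNA damage, p63 for maintaining the basal progenitors of stratified epithelia such as skin and esophagus, and p73 for roles in multiciliated cells and neurons. Trp63 is transcribed from separate promoters and spliced into several ends, so that probes along the gene need not read the same transcripts.

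The 3 probes below show what was measured for the member with the largest fall (Tprg), for the domain of the knocked-out gene that the family shares (Trp63) and for the member printed most often on the array (Trp53). They are the 60 bases on the array, 5′ to 3′, in transcript orientation, with positions in mouse build mm9. The Trp63 probe covers 778 bases of the genome with 60 bases of sequence and therefore crosses a splice junction, within the region that encodes the DNA-binding domain.
Tprg at base 959, chr16:25422306-25422365, plus strand: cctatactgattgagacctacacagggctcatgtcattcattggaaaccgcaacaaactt
Trp63 at base 799, chr16:25865388-25866165, plus strand: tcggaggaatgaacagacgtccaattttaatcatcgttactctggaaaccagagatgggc
Trp53 at base 989, chr11:69403134-69403193, plus strand: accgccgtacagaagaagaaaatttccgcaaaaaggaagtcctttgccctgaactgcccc

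The other 6 probes are given by position. A further Trp63 probe at base 4526 lies at chr16:25892012-25892071, in the 3′ untranslated end, and another, at base 527 of a cDNA clone, lies at chr16:25884684-25884743. The Trp73 probes at bases 2301 and 4901 lie at chr4:153433043-153433102 and chr4:153430443-153430502 on the minus strand. A second Trp53 probe at base 98 lies at chr11:69393959-69394017, and a second Tprg probe, at base 572 of a cDNA clone, at chr16:25317708-25317766. The measured Tprg probe lies 443023 bases before the first Trp63 probe on the same strand.

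The Cy5 signal was well above background for 30018 to 33228 probes on an array, and the number of arrays, not a read depth, limits the precision. Each genotype had a slide to itself, so the effect of the slide cannot be told apart from that of the genotype. Of the 9 member probes, 7 had a Cy5 signal well above background on all 9 arrays. The Trp63 cDNA probe had none well above background, and the Tprg cDNA probe had one on 1 array (p63-/- replicate 1), so that neither was tested. The reference RNA gave a signal well above background on all 9 arrays for 5 of the 7 measured probes, but for the Trp63 probe at base 799 on only 2 arrays (both p63-/- with Cdx2) and for the Trp73 probe at base 4901 on only 1 (p63-/- replicate 3). Their log ratios therefore rest on a floor in the Cy3 channel, and levels are also given for the sample channel alone. With the members' own values first, differences were tested with limma over 33741 probes, with Benjamini-Hochberg adjustment at 0.05.

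Tprg was the member that changed most. Its net Cy5 intensity, the mean signal of the spot minus its local background, was 68.0 and 125 on the arrays of p63-/- mice with Cdx2 and 71.8, 119 and 98.3 on those of p63-/- mice, against 799, 883, 694 and 866 on the WT arrays. Every array of both mutant groups thus lay several-fold under every WT array, while the reference channel of the same spots stayed between 243 and 286 on all 9 arrays. The log2 ratio of sample over reference averaged -1.73 ± 0.29 (SD, n = 2) in p63-/- with Cdx2, -1.93 ± 0.10 (SD, n = 3) in p63-/- and 0.82 ± 0.21 (SD, n = 4) in WT.

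Tprg fell by 2.75 on the log2 scale in p63-/- against WT (SE 0.14, 6.74-fold, limma adjusted p = 0.000202), as the 1 member probe of 7 that passed, where 0.264% of all probes passed. In p63-/- with Cdx2 it fell by 2.55 (SE 0.16, 5.86-fold, limma adjusted p = 0.000573), 1 of 2 member probes of 7 that passed, where 1.13% of all probes passed. With both groups of p63-/- mice in 1 contrast, Tprg was again the 1 member probe of 7 that passed, with a log2 difference of -2.65 (SE 0.12) where 0.83% of all probes passed. These comparisons share the WT arrays and are not independent of each other.

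**Figure D1:**
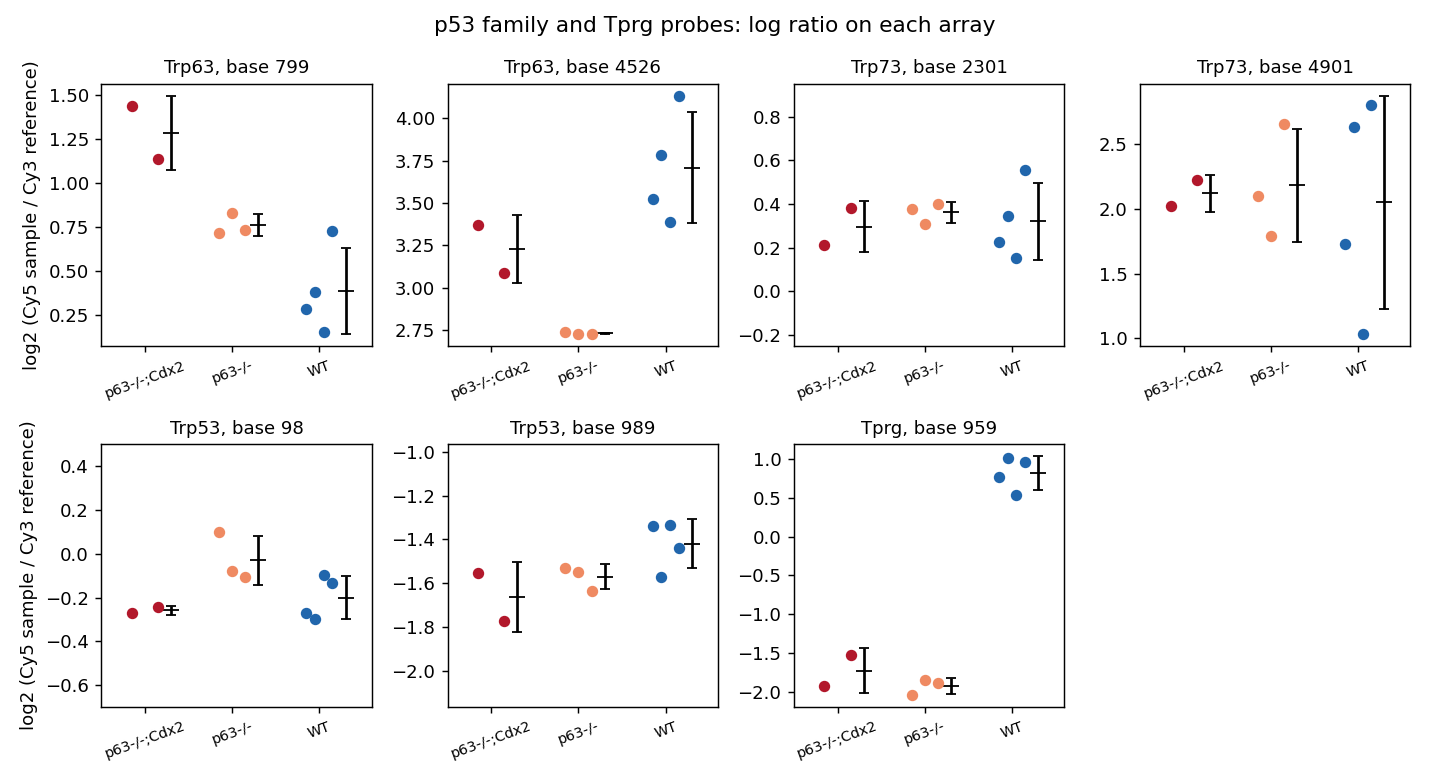
Log2 ratio of Cy5 sample over Cy3 reference for the 7 measured probes, 1 point per array, with group means and SD as bars beside the points and groups ordered p63-/-;Cdx2, p63-/- and WT. Tprg lies below -1.5 on the 5 arrays of both mutants and above 0.5 on the 4 WT arrays, the Trp63 probes at bases 799 and 4526 have mutant means on opposite sides of the WT mean, and the groups overlap for both Trp73 probes.

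Adding the transgene made no detectable difference to Tprg: p63-/- with Cdx2 minus p63-/- was 0.20 (SE 0.17, 95% interval -0.18 to 0.58, limma adjusted p = 0.673), and the arrays of these groups overlapped. None of the 7 member probes passed in this comparison, in which 0% of all probes passed. Over all probes 3881 had an unadjusted p under 0.05, and 8 passed with the scanner's own log ratios. The interval for Tprg ends well short of the WT level.

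Markers of stratified squamous epithelium were also lower in the mutants. The summed sample signal of 6 squamous markers was 15.21 and 15.39 on the log2 scale in p63-/- with Cdx2 and between 15.06 and 15.65 in p63-/-, against 17.89 to 18.23 in WT. Most of that sum was Krt15, a basal cell keratin, whose sample signal averaged 15.15 with Cdx2 and 15.21 in p63-/-, against 17.76 in WT, while its log ratio moved less, at 1.93 to 2.19 with Cdx2 and 2.02 to 2.19 in p63-/-, against 2.32 to 2.59 in WT. The sum of 3 smooth muscle markers was lower without overlap too, at 16.71 and 16.86 with Cdx2 and 16.80 to 16.94 in p63-/-, against 17.15 to 17.85 in WT. Most of that sum was Acta2. The sample signal of Myh11 was lower without overlap as well, while that of Des overlapped. For Myh11 it was 13.60 to 13.95 with Cdx2 and 13.63 to 14.09 in p63-/-, against 14.27 to 15.26 in WT. The log ratios of Myh11 and Des overlapped. Those of Myh11 were 2.62 to 2.94 with Cdx2 and 2.71 to 2.93 in p63-/-, against 2.69 to 3.00 in WT. Those of Des were 1.75 to 2.28 with Cdx2 and 2.27 to 2.71 in p63-/-, against 2.25 to 2.67 in WT. The sum of 4 general epithelial markers overlapped, at 16.53 and 17.71 with Cdx2 and 16.60 to 17.01 in p63-/-, against 16.49 to 18.09 in WT. The sum of 2 thyroid markers differed widely within genotypes, at 8.65 and 12.55 with Cdx2 and 13.03, 16.21 and 16.41 in p63-/-. In WT it was 8.46, 8.71, 17.62 and 16.94. The sum of 3 fibroblast markers was 18.72 and 18.83 with Cdx2 and 18.98 to 19.21 in p63-/-, against 18.84 to 19.08 in WT. The sums of skeletal muscle, immune, erythroid and adipocyte markers overlapped. In RNA of whole tissue, fewer cells of a type and less RNA per cell cannot be told apart. The part of any of these markers in the Tprg result was not tested. The genes whose log ratio followed Tprg most closely over the 9 arrays were Serpinb5 (Pearson r = 0.997), Krt6b (r = 0.994), Pkp1 and Sprr3 (r = 0.993 each) and Mycl (r = 0.986). Serpinb5 encodes the serpin maspin, Krt6b a keratin of stratified epithelia, Pkp1 the desmosomal protein plakophilin 1, Sprr3 a small proline-rich protein of the cornified envelope and Mycl a Myc family transcription factor. Of 17371 genes compared, 128 had r above 0.9 with Tprg, and since the 9 points fall apart into mutant and WT arrays, such values mainly describe that split.

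Tprg's promoter is shown because its transcript is the one that fell, and because p53 family proteins bind elements with the core CATG. The sequence is from RefSeq (build GRCm38.p6, chr16:25286567-25286866, plus strand), 250 bases before to 50 after the annotated start, with that core in capitals.
Tprg promoter: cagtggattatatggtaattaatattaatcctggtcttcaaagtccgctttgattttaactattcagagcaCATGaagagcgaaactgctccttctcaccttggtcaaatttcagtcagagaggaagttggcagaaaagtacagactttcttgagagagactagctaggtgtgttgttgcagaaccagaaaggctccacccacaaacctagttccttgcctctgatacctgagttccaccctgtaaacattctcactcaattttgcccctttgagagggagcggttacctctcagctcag
The window holds 1 CATG, as do 61.1% of 32851 promoters at least once, and no match to the p53 half-site consensus, which 8.36% of promoters hold. The half-site reads the same on both strands and may contain CATG, so the searches overlap. The table's Trp53 promoter holds 1 half-site and its 2 Trp73 promoters hold none, and Trp63 has no entry. A match is a description of letters in this window and says nothing of binding.

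Against WT, the Trp63 probes gave opposite directions. At base 4526 the net Cy5 intensity was 3097 and 2852 in p63-/- with Cdx2 and 2200, 2653 and 2580 in p63-/-, against 3407, 3914, 5545 and 5481 in WT. The 5 arrays of p63-/- mice with and without Cdx2 lay below the 4 WT arrays without overlap, and yet all carried a strong signal, with a reference channel between 135 and 166 on every array. On the log2 ratio scale the means were 3.23 ± 0.20 (SD, n = 2) in p63-/- with Cdx2, 2.73 ± 0.0042 (SD, n = 3) in p63-/- and 3.71 ± 0.33 (SD, n = 4) in WT.

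In the sample channel this probe fell by 1.19 in p63-/- against WT (SE 0.16, 2.28-fold, limma adjusted p = 0.0103), and it was 1 of 3 member probes of 7 that passed there, where 1.56% of all probes passed. In the reference channel, with the same RNA on every array, 10.4% of all probes passed in this comparison. This probe differed by -0.21 there (limma adjusted p = 0.563). As a log ratio the difference was -0.97 (SE 0.17), which missed the threshold (limma adjusted p = 0.0795). The groups did not overlap as log ratios or in the sample channel. For both groups of p63-/- mice together the probe fell by 0.99 in the sample channel (SE 0.14, limma adjusted p = 0.0133), 1 of 3 member probes of 7 where 2.24% of all probes passed, and differed by -0.73 as a log ratio (limma adjusted p = 0.0784). In p63-/- with Cdx2 the difference from WT passed on neither scale, at -0.79 in the sample channel (limma adjusted p = 0.0651) and -0.48 as a log ratio (limma adjusted p = 0.233). Between p63-/- with Cdx2 and p63-/- it differed by 0.50 as a log ratio (95% interval 0.04 to 0.95, limma adjusted p = 0.409), with the arrays apart.

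One WT array decides part of this. After normalization within and between arrays, the log2 reference signal of WT replicate 3 for this probe was 8.92. On the other WT arrays it was 8.03 to 8.07, although the net reference intensity of 164 on WT replicate 3 was like theirs. Without that array the log ratio difference between p63-/- and WT passed, at -1.08, and it passed with the log ratios of the scanner software too, at -1.42 (limma adjusted p = 0.0132).

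At base 799 the order was turned round. Net Cy5 intensity was 274 and 254 in p63-/- with Cdx2 and 130, 157 and 137 in p63-/-, against 39.1, 72.9, 65.9 and 100 in WT. The net values of the groups did not overlap, nor did those of the normalized sample channel, and the highest came from the mice with the transgene. As log ratios p63-/- and WT did overlap, at 0.72 to 0.83 against 0.16 to 0.73. Net intensities were not normalized. The median Cy5 signal of an array was 380 and 401 with Cdx2 and 411 to 472 in p63-/-, against 309 to 368 in WT. In the sample channel the probe rose by 1.11 in p63-/- with Cdx2 against WT (SE 0.15, 2.17-fold, limma adjusted p = 0.0121), 1 of 2 member probes of 7 that passed there, where 2.33% of all probes passed. As a log ratio it rose by 0.90 (SE 0.16, limma adjusted p = 0.0462).

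For p63-/- without the transgene, the difference of the probe at base 799 from WT was 0.39 in the sample channel (SE 0.13, limma adjusted p = 0.211) and did not pass. For both groups of p63-/- mice together it rose by 0.75 in the sample channel (SE 0.12, limma adjusted p = 0.0192), and the log ratio difference of 0.63 missed the threshold (limma adjusted p = 0.0647). Between p63-/- with Cdx2 and p63-/- it was 0.73 in the sample channel (95% interval 0.36 to 1.09, limma adjusted p = 0.1). In that comparison 0.267% of all probes and none of the 7 member probes passed in the sample channel, and 6.79% of all probes in the reference channel. As a log ratio the difference at base 799 was 0.52 (limma adjusted p = 0.36), so between the mutants both Trp63 probes were on the same side, and neither passed. The call as a log ratio was not firm: it was lost in 13 of 20 alternative ways of processing, among them the log ratios of the scanner software (0.28, limma adjusted p = 0.695).

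**Figure D2:**
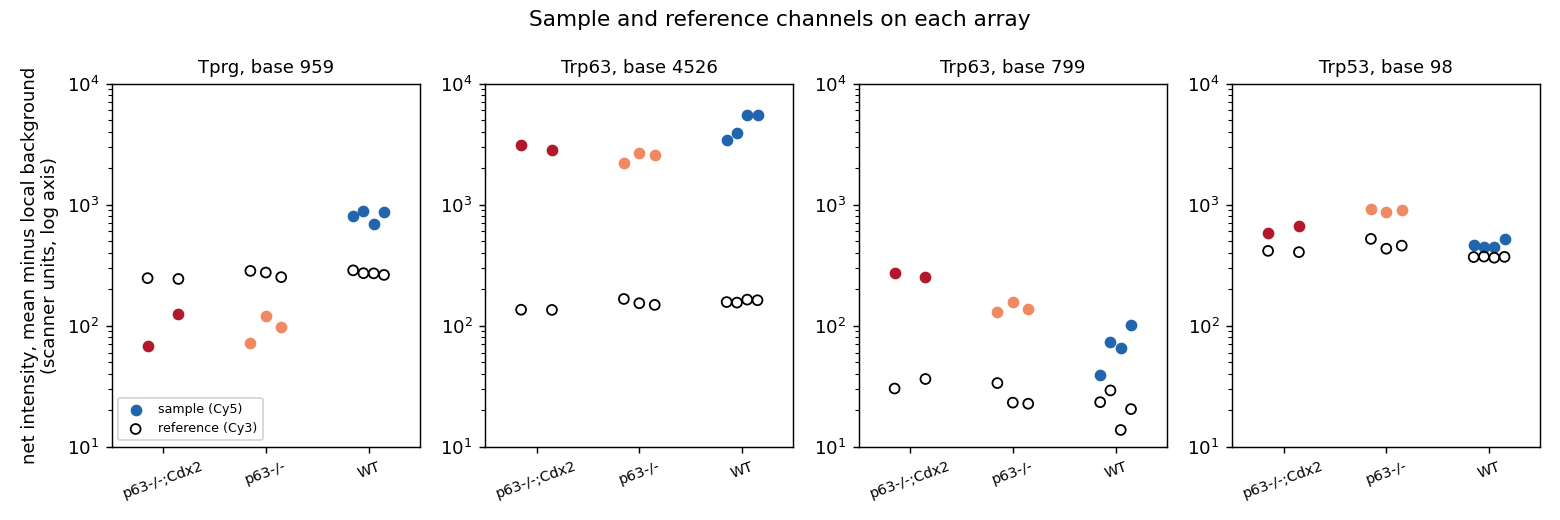
Net intensity (mean minus local background, scanner units, log axis) of the sample channel (filled) and the common reference channel (open) for 4 member probes, 1 point of each per array, in p63-/-;Cdx2, p63-/- and WT. For Tprg and for Trp63 at base 4526 the sample falls in mutants, while the reference varies less over the arrays. On the p63-/-;Cdx2 arrays these references lie somewhat below WT, at 243 and 247 against 263 to 286 for Tprg. For Trp63 at base 4526 they are 135 on both against 155 to 164. For Trp53 at base 98 both channels are higher on the p63-/- arrays than on the WT arrays.

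Set against each other within an array, the Trp63 probes separated mutant from WT arrays. The log ratio at base 4526 minus that at base 799 was 1.94 and 1.95 on the arrays of p63-/- mice with Cdx2 and 2.02, 1.90 and 1.99 on those of p63-/- mice, against 3.24, 3.39, 3.23 and 3.41 on the WT arrays. The 5 arrays of both mutants averaged 1.96 ± 0.05 (SD, n = 5) and the WT arrays 3.32 ± 0.09 (SD, n = 4), with both mutant groups below WT. The pair was chosen with earlier results of these arrays known. The difference of -1.36 had an exact two-sided permutation p of 0.0159 over all splits of the 9 arrays, the smallest that 5 arrays against 4 can give when tested on both sides, and 1 pair was tested. In the sample channel the difference was -1.71 with the same p. With the log ratios of the scanner software it was -1.36 with the same p, but the arrays lay less tightly, at 0.94 and 1.29 with Cdx2 and 0.79, 0.35 and 0.44 in p63-/-, against 1.33, 2.72, 1.96 and 2.48 in WT, so that the highest mutant array nearly reached the lowest WT array.

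**Figure D3:**
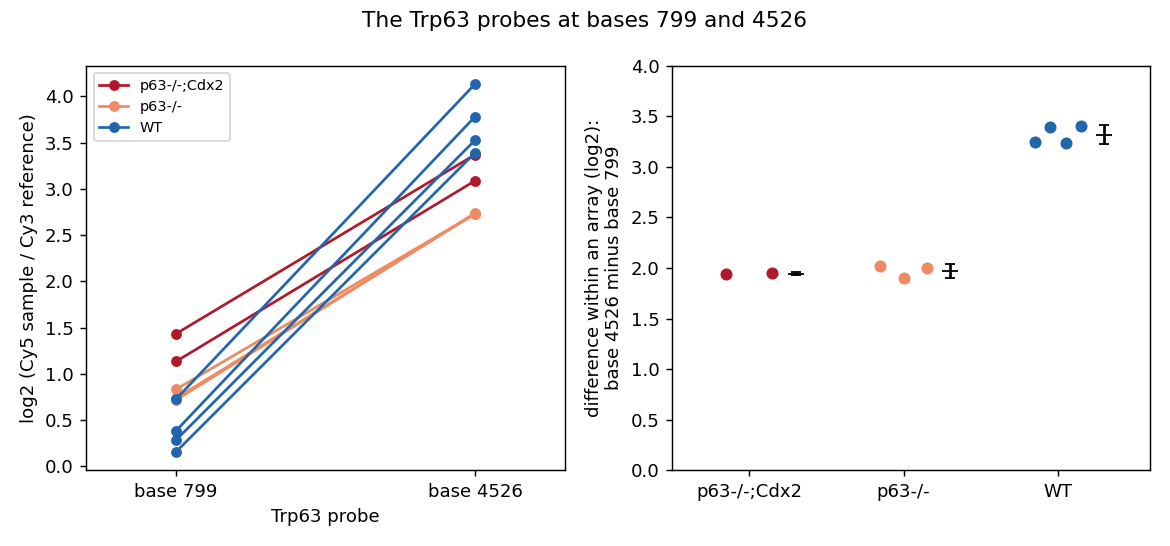
Left, the log2 ratio of the Trp63 probes at bases 799 and 4526, joined within each array; right, their difference within each array with group mean and SD. The 5 arrays of p63-/-;Cdx2 and p63-/- mice lie between 1.90 and 2.02 and the 4 WT arrays between 3.23 and 3.41.

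Over the 9 arrays the log ratio of Trp63 at base 4526 correlated with that of Tprg at r = 0.853 and that at base 799 at r = -0.709, while the Trp63 probes correlated with each other at r = -0.256. These are descriptions over arrays that fall into 3 genotypes. The genes most like Trp63 at base 4526 were Hr (r = 0.939), St6gal2 (r = 0.931), Adgrf4 (r = 0.920), Rnf222 (r = 0.920) and Dennd2c (r = 0.909). Hr encodes the hairless corepressor, and none of the 5 passed in either comparison with WT, with log2 differences of -0.15 to -0.80 in p63-/-. A probe that the files name by a transcript ID, and describe as a Trp63 transcript, lay between the probes at bases 799 and 4526 and is outside the rule. Its net intensity was 154 and 83.2 in p63-/- with Cdx2 and 48.3, 81.2 and 62.7 in p63-/-, against 37.0, 51.4, 39.3 and 61.3 in WT, and no comparison passed.

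Trp73 did not separate the genotypes. Its probe at base 4901 had net Cy5 intensities of 361 and 541 in p63-/- with Cdx2 and 378, 383 and 901 in p63-/-, against 293, 597, 486 and 684 in WT. The groups overlapped throughout, and the spread inside a genotype was as wide as that between genotypes. The log ratio difference was 0.13 in p63-/- against WT (SE 0.41, 95% interval -0.81 to 1.08, limma adjusted p = 0.95), 0.07 in p63-/- with Cdx2 against WT (95% interval -1.003 to 1.14) and -0.06 between p63-/- with Cdx2 and p63-/- (95% interval -1.19 to 1.07). These intervals are wide, and the sign of each difference changed with the processing.

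The Trp73 probe at base 2301 varied less, with net Cy5 intensities of 194 and 237 in p63-/- with Cdx2 and 163, 246 and 280 in p63-/-, against 146, 190, 180 and 222 in WT. Its log ratio differences from WT were -0.02 (95% interval -0.30 to 0.25) with Cdx2 and 0.04 (95% interval -0.20 to 0.28) without, and none passed. Both Trp73 probes followed each other over the arrays (r = 0.846). The genes most like the probe at base 4901 were Gja4 (r = 0.962), which encodes a gap junction connexin, Cfap44 (r = 0.959), a protein of the axoneme, Pifo (r = 0.952), a protein of the primary cilium, Wnt2b (r = 0.946), a Wnt ligand, and Efcab1 (r = 0.939), an EF-hand calcium-binding protein. Cfap44 stood at log2 ratios of 1.64 and 2.24 in p63-/- with Cdx2 and 1.80, 1.70 and 2.43 in p63-/-, against 1.67, 2.61, 1.10 and 2.51 in WT. Its 3 highest arrays were thus WT replicates 2 and 4 and p63-/- replicate 3, as they were for Trp73 at base 4901 but not at base 2301. WT replicate 3 had the lowest log ratio for both Trp73 probes (1.03 at base 4901, 0.15 at base 2301) and for each of these most similar genes. Its normalized reference signal at base 4901 was 7.71, where the other WT arrays lay between 6.55 and 6.67. The part of that array in these correlations was not tested.

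Markers of multiciliated cells varied across the same arrays. Their summed sample signal (3 of 3 markers measured) was 11.67 and 13.12 in p63-/- with Cdx2 and 12.85, 13.06 and 14.04 in p63-/-, against 11.50, 12.88, 12.50 and 13.31 in WT, on the log2 scale. WT replicate 1 and p63-/- with Cdx2 replicate 1 were lowest, and p63-/- replicate 3 highest, and their part in the Trp73 spread was not tested. Of 18 genes of the multiciliated program that p73 is known for, 15 were measured and none passed in any comparison. Their median log2 difference was 0.29 in p63-/- against WT, where 13 of 15 were above 0. Of all 22646 genes, each read from its brightest probe, 12763 were above 0 in that comparison, with a median of 0.02. The list's median was -0.03 in p63-/- with Cdx2 against WT and -0.18 between p63-/- with Cdx2 and p63-/-. Rfx3, a transcription factor of ciliogenesis, had the lowest p in both comparisons with WT, at 0.37 with Cdx2 (SE 0.13, limma adjusted p = 0.194) and 0.27 without (SE 0.12, limma adjusted p = 0.644), and Dnah5, an axonemal dynein chain, between both mutants, at -1.26 (SE 0.71, limma adjusted p = 0.519).

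No Trp53 probe passed as a log ratio. Its coding probe at base 989 was printed 10 times on every array, and the SD of those spots within an array was 0.031 to 0.078 on the log2 ratio scale. The array means were -1.55 and -1.78 in p63-/- with Cdx2 and -1.53, -1.55 and -1.63 in p63-/-, against -1.34, -1.57, -1.33 and -1.44 in WT. The groups overlapped, and the differences from WT were -0.24 with Cdx2 (SE 0.10, 95% interval -0.48 to -0.01, limma adjusted p = 0.254) and -0.15 without (SE 0.09, 95% interval -0.36 to 0.05, limma adjusted p = 0.731). The reference RNA was brighter than the esophagus at this probe on every array, at 3083 to 3496 net intensity units against 1556 to 2311 in the samples.

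At base 98 of Trp53 the net Cy5 intensity was 588 and 666 in p63-/- with Cdx2 and 925, 874 and 896 in p63-/-, against 461, 445, 450 and 523 in WT. In the sample channel it rose by 0.48 in p63-/- against WT (SE 0.08, limma adjusted p = 0.0329). The reference channel of the same spots, which holds the same RNA on every array, rose by 0.31 as well (limma adjusted p = 0.0089), with 415 and 405 net units beside p63-/- with Cdx2 and 432 to 521 beside p63-/-, against 364 to 372 beside WT. As a log ratio the difference was 0.17 (SE 0.08, limma adjusted p = 0.687), and the groups overlapped. In the reference channel 10.4% of all probes passed between p63-/- and WT and 0.187% between p63-/- with Cdx2 and WT. The genes most like Trp53 at base 989 were Nup62 (r = 0.961), a nuclear pore protein, Pde6g (r = 0.957), Kat6a (r = 0.941), a histone acetyltransferase, Ddx23 (r = 0.922), a spliceosomal helicase, and Lmntd2 (r = 0.916), over a range of 0.44 on the log2 scale for Trp53 itself.

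Proteins that modify, bind or degrade the p53 family formed a list of their own. Of its 25 regulators all were measured and none passed in p63-/- against WT or between both mutants, with median log2 differences of -0.04 and 0.04. In p63-/- with Cdx2 against WT, Ppp1r13l fell by 0.64 (SE 0.11, limma adjusted p = 0.0433) as 1 of 25, where 1.25% of all genes passed when each was read from its brightest probe, with a median of -0.00071 over the list. Ppp1r13l encodes iASPP, an inhibitor of p53. In the sample channel its difference was -0.49 (limma adjusted p = 0.0682).

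Of 24 genes that p53 is known to activate, all measured, 1 fell in p63-/- and 2 in p63-/- with Cdx2, both against WT, and none rose, where 0.322% and 1.25% of all genes passed in p63-/- and in p63-/- with Cdx2. Perp, a desmosomal membrane protein that p63 also activates, fell by 2.21 with Cdx2 (SE 0.28, limma adjusted p = 0.0164) and by 1.97 without (SE 0.24, limma adjusted p = 0.018). Pmaip1, which encodes the proapoptotic protein Noxa, fell by 0.97 with Cdx2 (SE 0.15, limma adjusted p = 0.0322). The list's median log2 difference was -0.0041 in p63-/- with Cdx2 and -0.0054 in p63-/-, and between both mutants no member passed, with Cdkn1a, the cell cycle inhibitor p21, at the lowest p (-0.80, SE 0.28, limma adjusted p = 0.375).

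Of 38 listed p63 targets 36 were measured. As log ratios, 6 fell in p63-/- with Cdx2 and 3 in p63-/-, both against WT, and none rose, where 1.25% of all genes passed with Cdx2 and 0.322% without. The list's median differences were -0.33 with Cdx2 and -0.13 without. The medians over all genes, each read from its brightest probe, were -0.0042 and 0.02. Krt14, which encodes a basal cell keratin, fell by 2.49 with Cdx2 (SE 0.11, limma adjusted p = 0.000197) and by 2.22 without (SE 0.10, limma adjusted p = 0.000129). Col17a1, a collagen of the hemidesmosome, fell by 1.83 with Cdx2 (SE 0.19, limma adjusted p = 0.0081) and by 1.37 without (SE 0.16, limma adjusted p = 0.0158), and Perp is given above. Itgb4, the integrin subunit of the hemidesmosome, fell by 1.35 with Cdx2 against WT. Hells, a chromatin remodelling helicase, had the lowest p between both mutants (0.94, SE 0.25, limma adjusted p = 0.343). With both groups of p63-/- mice in 1 contrast 7 targets fell as log ratios, where 0.963% of all genes passed, and 10 in the sample channel, where 2.48% passed. Leaving out WT replicate 3 made the log ratio counts 8 with Cdx2 and 5 without, and leaving out WT replicate 4 made them 2 with Cdx2 and 1 without. Calls over all probes also moved when 1 array was left out, as given below. These counts were not set against the share of all genes in the same fits.

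In the sample channel 9 p63 targets fell in each mutant against WT, where 2.52% of all genes passed with Cdx2 and 1.74% without. Some were much further apart there than as log ratios, and their reference channel moved with the sample. Krt5, the keratin partner of Krt14, had 132 and 5424 net Cy5 units in p63-/- with Cdx2 and 238 to 918 in p63-/-, against 37692 to 55325 in WT, and its reference channel had 79.4 and 616 units with Cdx2 and 66.9 to 111 in p63-/-, against 4300 to 5690 in WT. Its sample signal fell by 5.51 with Cdx2 and by 6.57 without (limma adjusted p = 0.0382 and 0.0118), while its log ratio differed by -1.55 and -1.48 and did not pass. Evpl, which encodes the cornified envelope protein envoplakin, did likewise in p63-/- against WT, with -2.91 in the sample channel and -0.40 as a log ratio. The reference channels of Tprg and of Trp63 at base 4526 did not show such a shift.

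The genes around Trp63 were read to set Tprg beside its neighbours. Within 2 Mb of the Trp63 probes, 34 other probes of 20 names were listed and 29 probes of 16 names measured. Of the 29, Tprg was the 1 probe that fell in p63-/- against WT, where 0.264% of all probes passed. Between both mutants none passed, where 0% of all probes passed. The nearest measured gene on the far side was P3h2, a collagen prolyl hydroxylase, 73864 bases away, with log2 differences of -0.0020 in p63-/- with Cdx2 (limma adjusted p = 0.998) and 0.30 in p63-/- (limma adjusted p = 0.758). Cldn1, the tight junction protein claudin 1, differed by 0.65 and 0.42 with Cdx2 and by 0.29 and 0.32 without at its 2 probes, and did not pass.

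Lpp, which encodes a LIM protein of focal adhesions, lies on the other side of Tprg and was read by 7 probes. The probe at base 9148 fell by 0.63 in p63-/- with Cdx2 against WT (SE 0.11, limma adjusted p = 0.0481), with log ratios of -0.48 and -0.49 with Cdx2 against 0.03 to 0.26 in WT. This probe and that of Tprg were the 2 of 29 measured neighbour probes that passed in this comparison, where 1.13% of all probes passed. The other Lpp probes differed by -0.07 to -0.35 and did not pass. Il1rap, Ccdc50, Ostn, Uts2b, Bcl6, Sst, Lppos and the probes without a gene symbol did not pass in any comparison, and Rtp2, Cldn16 and Tmem207 were below the filter.

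**Figure D4:**
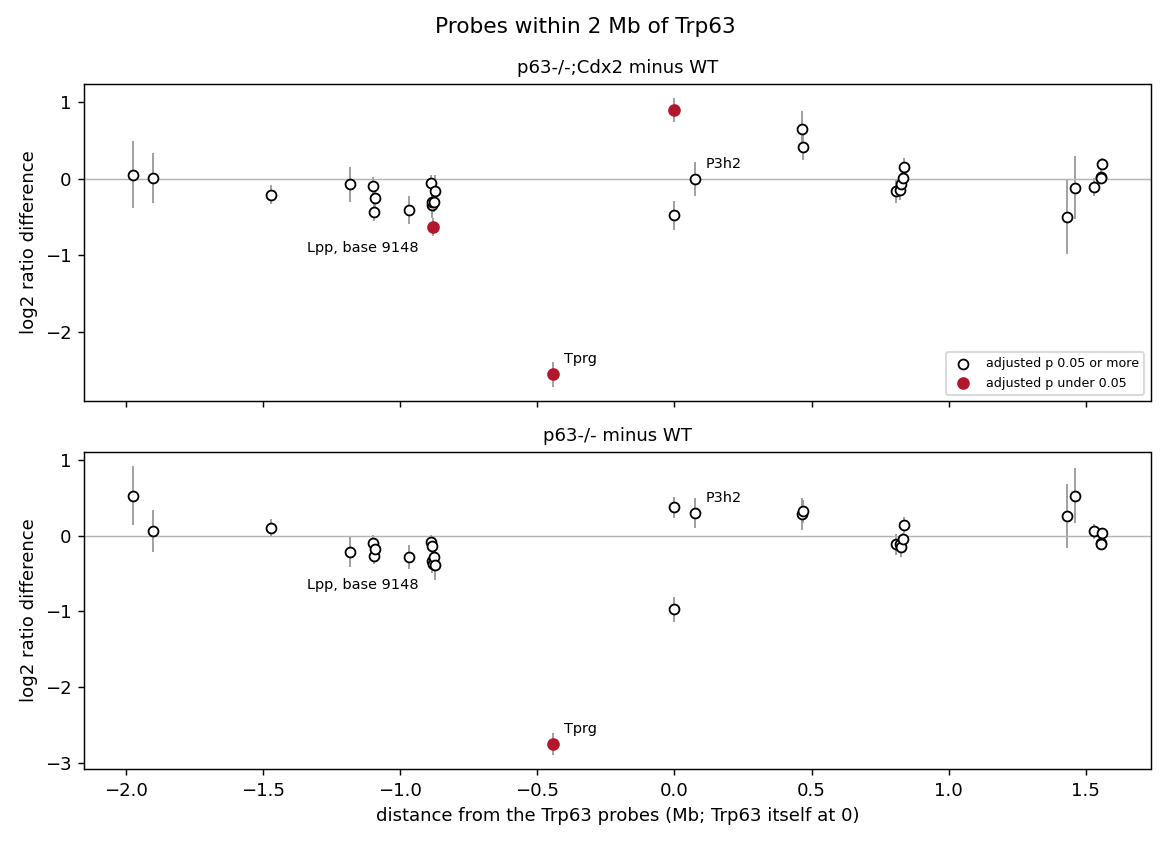
Log2 ratio difference (points, with SE as lines) of the measured probes within 2 Mb of Trp63, by distance from the Trp63 probes, which stand at 0, for p63-/-;Cdx2 minus WT (top) and p63-/- minus WT (bottom). Filled points passed at an adjusted p under 0.05. Tprg lies at -2.55 and -2.75, and Lpp at base 9148 passes in the top panel.

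**Figure D5:**
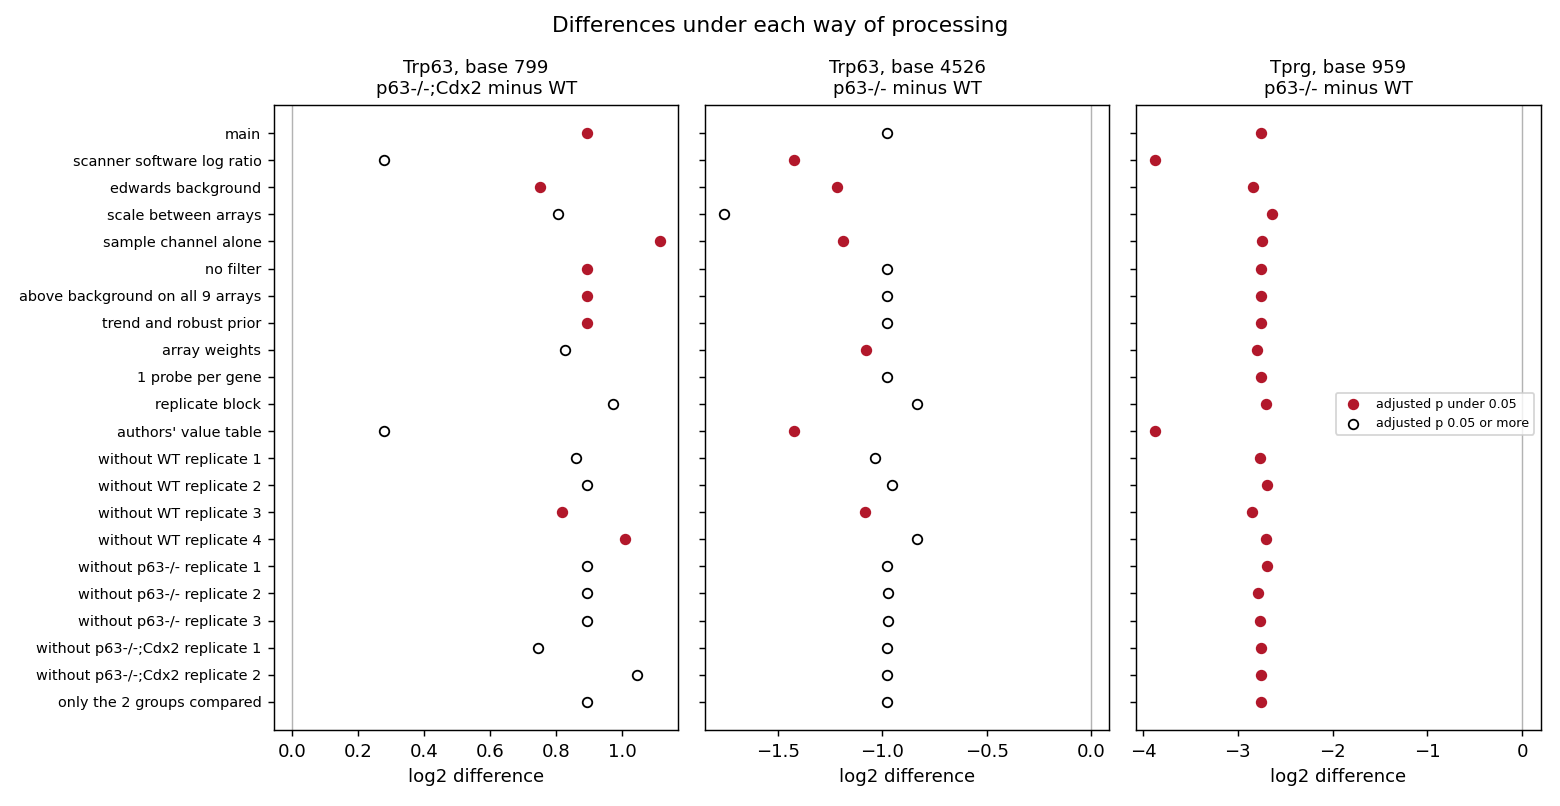
Log2 difference of 3 member results under the processing used (top line) and each alternative, filled where the adjusted p was under 0.05. Tprg in p63-/- minus WT passes on every line, while Trp63 at base 4526 and at base 799 keep their direction and pass on some lines.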

How the data were processed

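The files hold spot intensities written by Agilent Feature Extraction, version 10.7.3.1 per the file headers and 9.1 per the submitters' processing notes. Per the file headers, mean and local background intensity are given per channel, without subtraction, beside the log10 ratio of the software. The deposited value table holds log2 ratios of the same arrays (r with each array's scanner log ratio 0.992 or more, column medians -0.212 to -0.0292). Its centring is not given in the sources used here, and its direction is Cy5 over Cy3, as its correlation with the scanner values shows.

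Of 45018 spots, 1639 were controls. Signals were background-corrected by normexp (offset 50) and normalized by loess within arrays, control spots at weight 0, outlier spots (119 to 171 per array) left out and spots of a probe averaged. Sample and reference channels were taken after Aquantile. Probes were kept where the Cy5 signal was well above background on 2 or more of 9 arrays, except 8 without a value in a group. Genotypes were compared in 1 linear model with limma 3.58.1 (lmFit, eBayes) in R 4.3.3, with adjusted p over all 33741 probes. The Trp63 probe pair was tested by exact permutation in scipy 1.17.1. Gene lists were described by counts and medians, read from the brightest probe of each gene. Names come from RefSeq (GRCm38.p6) and coordinates from the files (mm9).

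On simulated data, 77.6%, 98.5% and 98.5% of probes changed by 1, 2 and 3 on the log2 scale were called in p63-/- minus WT. The shares were 73.1%, 97.0% and 98.5% in p63-/- with Cdx2 minus WT, and 58.2%, 97.0% and 95.5% between both mutants. In each comparison 67, 67 and 66 of 33741 probes were changed by these sizes. False calls numbered 10 in p63-/- minus WT, 7 with Cdx2 minus WT and 10 between both mutants. The adjusted p depends on how many probes change. The shares are therefore not the sensitivity in the arrays themselves, where none passed between both mutants. The genes, lists and tests were chosen with earlier results of these data known. Named were all member probes, the 5 genes most like each member, every neighbour within 2 Mb and, of each list, up to 5 passing genes in each direction or, where none passed, that with the lowest p, except 1 gene that is not reported here. Krt5 and Evpl were added after their values were seen, for the difference between scales. Replicate numbers did not pair the arrays: deviations of 7 same-numbered pairs correlated at -0.13 to 0.18. Other backgrounds, normalizations, filters, priors and left-out arrays were tried as alternatives.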

Additional observations from a re-analysis of the deposited data

Results flagged for a closer look

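In WT, 2 of 21 sets of 4 values (7 probes, on 3 scales) had 1 array far from the others, and chance marks about 1 such set in 20. Both were the normalized reference signal of WT replicate 3. For Trp63 at base 4526 it was 8.92 on the log2 scale, where the other 3 arrays lay between 8.03 and 8.07. For Trp73 at base 4901 it was 7.71, where the others lay between 6.55 and 6.67. Before normalization the net reference intensities of that array did not stand apart: 164 at the Trp63 probe, where the other WT arrays had 155 to 162, and 26.8 at the Trp73 probe, where they had 21.9 to 29.2.

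A probe outside the comparisons, which the files describe as a Trp63 transcript but name by its transcript ID, lies at chr16:25867718-25867777 (mm9) and was well above background on all 9 arrays. Its sample signal was 0.52 higher on the log2 scale in p63-/- with Cdx2 than in WT (95% interval 0.15 to 0.89, limma adjusted p = 0.125), with both arrays above all 4 WT arrays.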

How the results depend on the processing

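Tprg kept its direction and passed against WT in all 21 alternatives in each mutant (-2.35 to -3.49 with Cdx2, -2.64 to -3.88 without). The Trp63 probe pair lay at -1.33 to -1.71 in 12 alternatives, 2 of them added after seeing the data (-1.36 each, scanner's ratio and authors' table). Its exact permutation p was in each case the smallest its number of arrays allows, and so says nothing about stability. Trp63 at base 4526 in p63-/- minus WT passed with the scanner's ratio and with the authors' table (-1.42 each), edwards background (-1.22), the sample channel alone (-1.19) and array weights (-1.07), and lay at -1.08 to -0.83 with 1 array left out, passing without WT replicate 3. Scaling between arrays made it -1.76 without a call (limma adjusted p = 0.574). For both mutants together the same settings gave -1.08, -1.08, -0.97, -0.99 and -0.83, -0.83 to -0.58 with 1 array left out and -1.49 with scaling (limma adjusted p = 0.269), and for p63-/- with Cdx2 minus WT all alternatives lay at -1.21 to -0.34 without a call. Trp63 at base 799 in p63-/- with Cdx2 minus WT lost its call with the scanner's ratio and the authors' table (0.28 each), scaling between arrays (0.81), array weights (0.83), the replicate block (0.97) and only the 2 groups compared (0.90), and in 7 of 9 fits with 1 array left out (0.75 to 1.04 over all 9, where WT replicates 3 and 4 could be left out without losing it). For both mutants it passed in the sample channel (0.75), lay at 0.56 to 0.75 with 1 array left out (passing without WT replicate 4) and was 0.23 with the scanner's ratio and with the authors' table (limma adjusted p = 0.733 and 0.732). The replicate block could not be based on paired mice, and left 12 calls over all probes in p63-/- minus WT and 9 in p63-/- with Cdx2 minus WT. The cause of these shifts was not tested.

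Calls over all probes in p63-/- minus WT, 89 in number, became 169 with the scanner's ratio, 168 with the authors' table, 230 with edwards background, 234 with array weights and 526 in the sample channel, and 24 to 148 with 1 array left out. In p63-/- with Cdx2 minus WT, 380 became 1200 with edwards background, 128 with scaling, 786 in the sample channel, 850 with a trended robust prior and 70 with only the 2 groups compared, and 48 to 535 with 1 array left out. Between both mutants, 0 became 8 with the scanner's ratio and with the authors' table, 90 in the sample channel and 1 with the trended prior, and 0 to 48 with 1 array left out, the 48 without replicate 1 with Cdx2. The p63 targets that fell in p63-/- were 9 in the sample channel in place of 3, and 1 to 5 without a WT array in doubt (replicates 3 and 4, chosen after seeing the data). With Cdx2 they were 2 to 8 and for both mutants 4 to 10. The target counts with an array left out were not set against the share of all genes in the same fits.

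The differences of Trp73 and Trp53, none of them called as log ratios, turned sign in some settings. Trp73 at base 4901 in p63-/- minus WT went to -0.19 with the scanner's ratio and the authors' table, -0.23 with edwards background, -0.17 with scaling, -0.20 in the sample channel and -0.11 with array weights, and -0.21 to 0.38 with 1 array left out. The probe at base 2301 gave -0.030, -0.030, -0.034, -0.0042, -0.061 and -0.013 in the same settings and -0.014 to 0.12. In p63-/- with Cdx2 minus WT, base 4901 gave -0.28 with edwards background, -0.16 with scaling, -0.22 in the sample channel, -0.21 with array weights and -0.27 to 0.32 with 1 array left out, and base 2301 gave 0.023 in the sample channel, 0.042 with the replicate block and -0.11 to 0.059. Between both mutants, base 4901 gave 0.79 with the scanner's ratio and the authors' table, 0.0065 with scaling and -0.26 to 0.17, and base 2301 gave 0.084 in the sample channel and -0.15 to 0.017. Trp53 at base 989 gave 0.21 with scaling in p63-/- minus WT and 0.071 with Cdx2 minus WT, and -0.20 to 0.019 between both mutants with 1 array left out. Trp53 at base 98 gave 0.14 in the sample channel with Cdx2 minus WT, and Tprg between both mutants lay at -0.0011 to 0.40.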

Other observations

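Tprgl, the Tprg-like gene, is not a synonym of Tprg and was read by 1 probe. Its net Cy5 intensity was 4731 and 5584 in p63-/- with Cdx2 and 7469, 6586 and 6201 in p63-/-, against 4766, 4497, 3634 and 4882 in WT, and no comparison of its log ratio passed. A probe that the files describe as a Trp73 transcript, but place on the opposite strand to Trp73, had no signal well above background on the 9 arrays.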
